A study of Mus musculus with 8 samples.

Results

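The genes described here encode 9 transcription factors that together define the hepatocyte, chosen by symbol: Hnf4a, Nr5a2, Foxa1, Foxa2, Foxa3, Cebpa, Cebpb, Onecut1 and Prox1. All 9 were found among the 35638 genes of the table, and all 9 were among the 11266 tested genes, those with a mean of at least 1 FPKM over the libraries (FPKM, fragment counts relative to gene length and sequencing depth). RNA was sequenced from frozen mouse livers (C57/B6 and 129 mix) taken at postnatal day 90. Both groups carried the Arid1a Fl/Fl genotype, in which loxP sites flank part of Arid1a, which encodes a DNA-binding subunit of SWI/SNF chromatin remodellers. In 4 samples no Cre was present (WT), and in 4 samples Alb-cre was added (KO), a transgene whose albumin promoter expresses Cre recombinase in hepatocytes and, through their shared precursors, can also recombine in biliary cells. The labels give neither sex nor the deleted exons, nor do they say that replicates were separate animals, so the spread behind each p-value is that between samples and could be technical.

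Hepatocyte identity is held by a network of factors that bind one another's genes and the same enhancers. FOXA proteins are pioneer factors that can bind closed chromatin, HNF4A is the nuclear receptor that occupies most hepatocyte enhancers, and C/EBP proteins, ONECUT1 and NR5A2 bind beside them. PROX1 is a homeobox protein that acts in hepatocytes largely as a corepressor of nuclear receptors, and it is also the master factor of lymphatic endothelium.

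Arid1a itself ranged over 3.998 to 8.38 FPKM in WT livers, against 2.59 to 3.46 in KO livers, without overlap (log2 change -0.67, limma adjusted p = 0.316). Depth, estimated from the spacing of low values, was about 12400000 to 15200000 reads per library. At that depth Foxa1, the lowest of the 9 genes, rested on about 132 to 222 reads per library and Hnf4a on about 4775 to 6956 reads. The tissue label held: the 20 tested hepatocyte secreted products summed to 41678 to 58097 FPKM in WT and 44564 to 69308 FPKM in KO, with 0 called.

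Hnf4a and Prox1 each have more than 1 start in RefSeq, and the files give 1 value per gene for all of them, so the windows before those starts are shown. The starts of Hnf4a lie 40298 bases apart on the plus strand of chromosome 2; the upstream one is known as P2, used mainly in fetal liver and pancreas, and the downstream one as P1, the promoter of adult hepatocytes. The stretch before P2 is 201 bases at chr2:163506607-163506807 (+), which stops where an annotated exon of Hnf4a begins. For P1, where an annotated exon covers the window, only the 30 bases around a match to the HNF1 motif are printed, at chr2:163547066-163547095 (+). The stretch before the upstream Prox1 start is 250 bases at chr1:190170828-190171077 (-), inside an intron of the antisense gene Prox1os. At the downstream Prox1 start the 30 bases around a forkhead match are printed, at chr1:190169617-190169646 (-). Capitals mark the motif matches, 5′ to 3′, and sequences are from RefSeq on GRCm38.p6.
Hnf4a P2: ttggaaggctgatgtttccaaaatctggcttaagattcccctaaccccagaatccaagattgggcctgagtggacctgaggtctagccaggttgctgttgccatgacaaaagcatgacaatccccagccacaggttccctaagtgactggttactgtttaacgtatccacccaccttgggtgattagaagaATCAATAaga
Hnf4a P1: cgggggtgaTTAACCATTAACtcctacccc
Prox1 upstream: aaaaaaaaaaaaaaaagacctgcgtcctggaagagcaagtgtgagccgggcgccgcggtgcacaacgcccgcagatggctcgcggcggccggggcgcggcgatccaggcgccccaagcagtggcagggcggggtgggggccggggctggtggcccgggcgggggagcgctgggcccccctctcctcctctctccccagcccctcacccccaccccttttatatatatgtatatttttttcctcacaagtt
Prox1 downstream: tatttgcttgcTGTTTGCatacctttcact
The search took the 250 bases before each start on both strands, in 14 windows of the 9 genes and 32851 windows of all genes. The HNF1 motif, an inverted repeat, was found in 0.131% of all windows and, among these genes, only in the P1 window of Hnf4a, 80 bases before the start and read on the opposite strand. The ONECUT motif ATCAATA was in 1.86% of all windows and in those of Hnf4a P2 and Foxa2. The forkhead motif TGTTTAC, in 3.17% of all windows, was found before Foxa1, and TGTTTGC, in 4.30%, before the downstream start of Prox1. The letters CAAAGTCCA (HNF4, 0.384% of windows), TTGCGCAA (C/EBP, 0.164%) and TCAAGGTCA (NR5A2, 0.387%) were in none of the 14 windows. A match describes these letters and is not evidence of binding.

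None of the 9 genes passed the threshold in KO livers (limma on log2(FPKM + 1), Benjamini-Hochberg adjusted over all genes, 0.05). Over all tested genes 0.763% passed, 0.408% higher and 0.355% lower. At an unadjusted p under 0.05 the count was 1 of 9, against 9.81% of all genes (4.82% lower in KO), and that gene was Prox1. Prox1 was also the one gene of the 9 whose KO libraries all lay below its WT libraries, against 3.18% of all genes; for 3.05% every KO library lay above every WT library, and for 6.23% the groups did not overlap in either direction. The change was negative for 8 of the 9 and positive for Cebpb, with a median of -0.09, and 54.5% of all tested genes had a negative change (median -0.03). Of the 9 changes 5 were smaller than 0.2 in size, as were 51.0% of those of all genes.

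**Figure D1:**
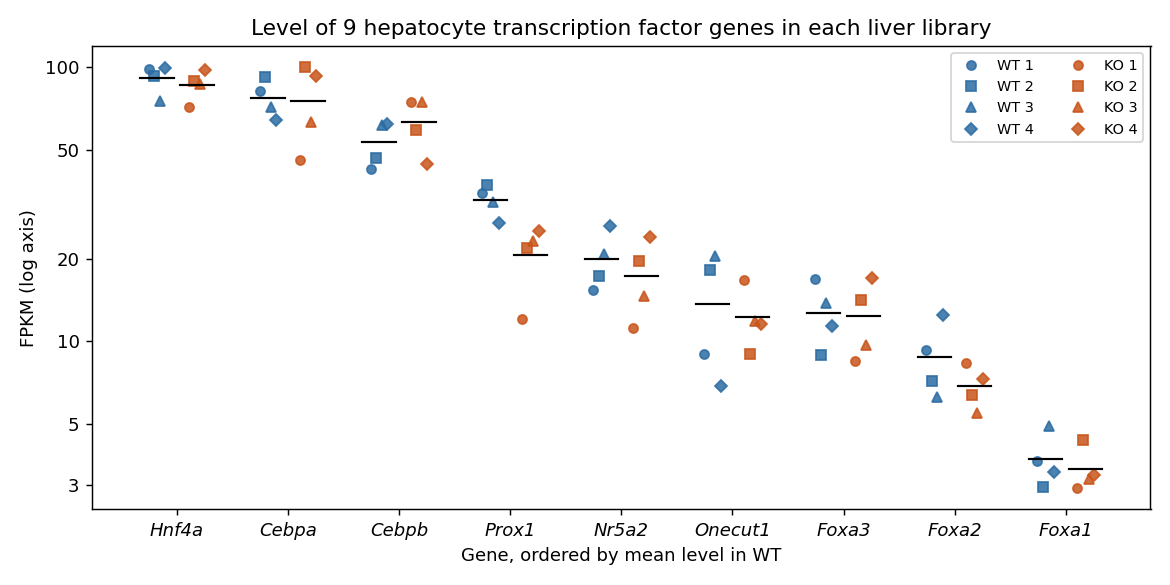
Level of the 9 genes in FPKM on a log axis, by library, with WT in blue, KO in orange, 1 symbol per replicate number and a black line at each group's mean. The groups overlap for every gene except Prox1, where KO libraries run from 12.1 to 25.3 FPKM and WT libraries from 26.9 to 37.1 FPKM.

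In WT livers the genes stood in the order Hnf4a, Cebpa, Cebpb, Prox1, Nr5a2, Onecut1, Foxa3, Foxa2, Foxa1, from 91.4 ± 11.3 to 3.71 ± 0.850 FPKM (mean ± SD over 4 libraries, as for all group values here unless SE is named), on a scale that corrects for gene length. Hnf4a exceeded 96.3% of the 8895 tested protein-coding genes in WT, and Foxa1 exceeded 40.5%. The WT ranges of Cebpa and Cebpb, of Cebpb and Prox1, of Prox1 and Nr5a2, and of Foxa2 and Foxa1 did not overlap. Those of Hnf4a and Cebpa, Nr5a2 and Onecut1, Onecut1 and Foxa3, and Foxa3 and Foxa2 did. In KO the order was the same except that Foxa3 (12.3 ± 3.97 FPKM) and Onecut1 (12.3 ± 3.23 FPKM) changed places by a margin far inside their spread. The ranges of Prox1 and Nr5a2 overlapped in KO, although Prox1 was the higher of the pair within each of the 4 libraries.

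Prox1 (ENSMUSG00000010175, chromosome 1, 190118035 to 190170714, minus strand, GRCm38) measured 34.9, 37.1, 32.3 and 26.9 FPKM across WT 1 to 4. The libraries KO 1 to 4 held 12.1, 21.9, 23.2 and 25.3 FPKM. KO 1 was well below the other KO libraries, and the highest KO value, in KO 4, came close to the lowest WT value, in WT 4. The mean of 20.6 ± 5.87 FPKM in KO was 37.0% below that of 32.8 ± 4.38 FPKM in WT (SD, n = 4 each). The log2 change was -0.68 ± 0.24 (SE), with a 95% interval of -1.22 to -0.14, a limma p of 0.0183 and a limma adjusted p of 0.349. By exact two-sided permutation p was 0.0286, which is the floor for 70 splits. Prox1 thus missed the threshold over all genes, and its p ranked 589 among them. Without KO 1 its change was -0.46 (limma adjusted p = 0.471). The separation of the groups depended on the scaling: with median ratio scaling KO 3 (24.2) lay above WT 4 (23.6), and with equal sums of protein-coding FPKM KO 3 (24.5) lay above WT 4 (23.3).

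**Figure D2:**
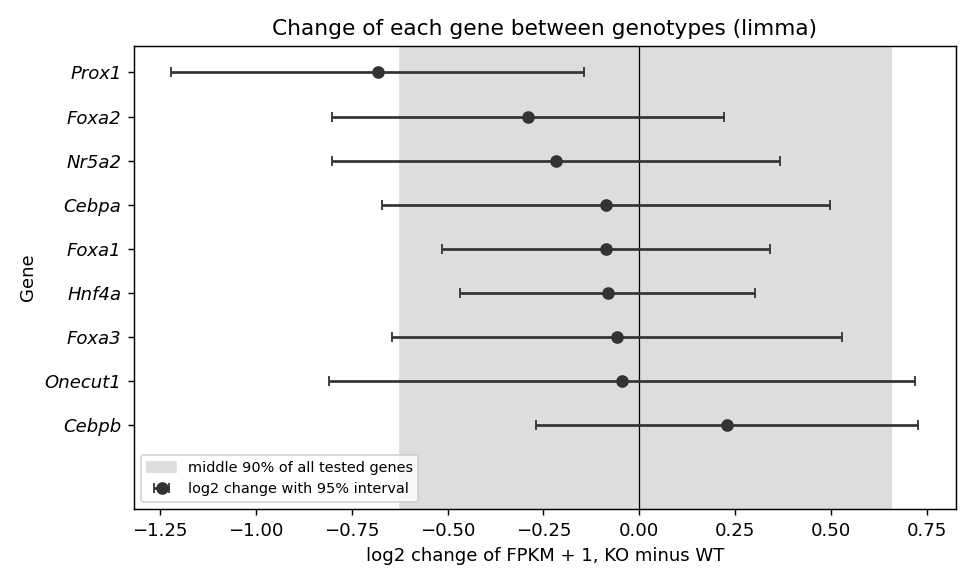
Log2 change of FPKM + 1 (KO minus WT) of the 9 genes with 95% intervals from limma; the grey band spans the 5th to the 95th percentile of all 11266 tested genes (-0.63 to 0.66). The interval of Prox1, from -1.22 to -0.14, lies below 0, and those of the other genes include 0.

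In bulk tissue, fewer cells of a type and less RNA per cell cannot be told apart. Summed markers of several other cell types were higher in KO beside these genes. The sums take every listed marker that was found, tested or not. Low markers could reach the 1 FPKM minimum for testing through KO alone, which favours positive changes among those tested. Summed macrophage markers ran from 13.5 to 34.2 FPKM in WT and from 49.2 to 215 FPKM in KO. The change was positive in 13 of 13 tested members, with 0 called. The number called was 11 without KO 2 and 0 without any other library. Endothelial markers ran from 6.005 to 15.03 and from 24.7 to 52.5 FPKM (13 of 13 positive, 1 called). The called gene was Dnase1l3, with a limma adjusted p of 0.0452, and as high as 0.132 after dropping 1 library. The number of endothelial markers called was 7 without KO 2 and 0 without any other library. Stellate cell markers ran from 5.46 to 11.7 and from 20.02 to 41.6 FPKM (5 of 5 positive, 0 called, but 2 without KO 2 and 1 without WT 4). The smallest p in the macrophage list was that of Cd5l (limma adjusted p = 0.0692) and in the stellate list that of Dcn (0.0866). Neutrophil markers summed to 1.198 to 17.6 FPKM in WT and 1.88 to 9.31 FPKM in KO, led by Lcn2, and pancreas markers, led by Cela1, to 3.17 to 9.64 and 2.53 to 8.32 FPKM. KO 3 held the highest macrophage sum and KO 2 the lowest of the KO libraries, whereas Prox1 was lowest in KO 1. The part of these cells in the value of Prox1 was not tested.

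Lymphatic endothelium also transcribes Prox1, and its markers were low in these libraries. Its 10 markers summed to 2.33 to 4.81 FPKM in WT and 4.75 to 9.84 FPKM in KO, the ranges just overlapping, and KO 1, lowest in Prox1, had the highest sum. Mmrn1 and Foxc2 were listed at 0 in all 8 libraries, and the membrane glycoprotein gene Pdpn and the chemokine gene Ccl21a were listed at 0 in all WT libraries and reached at most 0.0389 and 0.126 FPKM in KO. Of the 2 tested markers, Reln had the smaller p (1.25 ± 0.792 FPKM in WT, 3.46 ± 1.65 FPKM in KO, limma adjusted p = 0.374). Reln is also on the stellate cell list, so the lymphatic sum is not particular to lymphatic cells. KO 1 was also the highest library in the stellate (41.6 FPKM) and endothelial (52.5 FPKM) sums. The part of lymphatic cells in the value of Prox1 was not tested.

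A ratio of FPKM values within a library does not depend on how libraries are scaled. The ratio of Prox1 to Hnf4a was 0.353, 0.398, 0.430 and 0.272 in WT 1 to WT 4 and 0.169, 0.247, 0.267 and 0.260 in KO 1 to KO 4. Every KO value was below every WT value, though WT 4 and KO 3 nearly met. On the log2(FPKM + 1) scale the difference was -0.60 (exact two-sided permutation p = 0.0286, Benjamini-Hochberg 0.114 over the 4 ratios compared). Because of the added 1, values on that scale do depend somewhat on library scaling. Without the added 1 the difference was -0.63. Set against the mean log2(FPKM + 1) of 20 hepatocyte secreted products, Prox1 differed in KO by -0.86, with 3 of 4 KO libraries below all WT libraries (exact permutation p = 0.0571, 0.114 over the 4 ratios). That difference includes a rise of the reference: Prox1 alone changed by -0.68, and 14 of the 20 products had a positive change (median 0.17). The ratios were chosen with the low p of Prox1 already known.

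**Figure D3:**
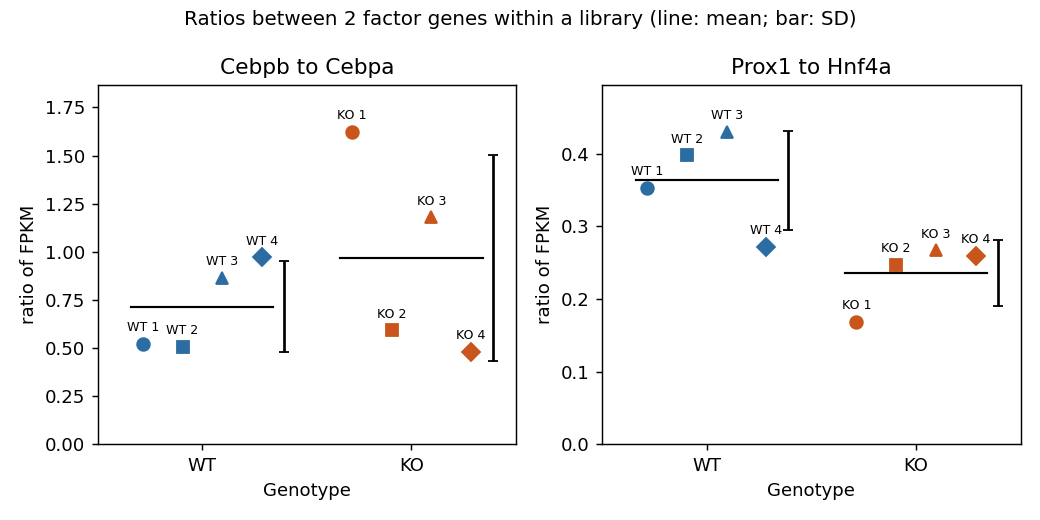
Ratio of FPKM of Cebpb to Cebpa (left) and of Prox1 to Hnf4a (right) in each library, with the mean as a line and the SD (n = 4) as a bar; both axes start at 0. The Prox1 to Hnf4a ratio is 0.272 or more in WT and 0.267 or less in KO, while the Cebpb to Cebpa ratio spans 0.479 to 1.62 within KO.

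Hnf4a (ENSMUSG00000017950, chromosome 2, 163506808 to 163572910, plus strand) was among the steadiest of the set. It measured 98.8, 93.1, 75.0 and 98.8 FPKM across WT 1 to 4, against 71.7, 88.9, 87.1 and 97.4 across KO 1 to 4. Of the KO libraries 3 lay within the WT range and KO 1 just under it. The log2 change was -0.08 ± 0.17 (SE; 95% interval -0.47 to 0.30, limma adjusted p = 0.945), an interval that corresponds to a fold between 0.723 and 1.23. The coefficient of variation was 12.3% in WT and 12.4% in KO, and 10.5% of tested protein-coding genes varied less in WT. Its promoters cannot be separated in these values.

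Nr5a2 encodes LRH-1, a nuclear receptor of bile acid and cholesterol genes. It measured 15.4, 17.3, 20.8 and 26.4 FPKM across WT 1 to 4, against 11.2, 19.5, 14.7 and 24.1 across KO 1 to 4. KO 1 and KO 3 lay below all WT libraries and KO 2 and KO 4 within their range. The log2 change was -0.22 ± 0.26 (SE; interval -0.80 to 0.37, limma adjusted p = 0.889). Single libraries moved it: it was -0.04 without KO 1, -0.08 without WT 4 and -0.39 without KO 4.

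The FOXA genes were among the lowest expressed of the 9, and their groups overlapped. Foxa3, the family member most abundant in adult liver, measured 16.8, 8.94, 13.8 and 11.4 FPKM across WT 1 to 4, against 8.48, 14.1, 9.66 and 17.03 across KO 1 to 4. The KO libraries thus spanned slightly more than the WT range on both sides (log2 change -0.06 ± 0.26, SE; limma adjusted p = 0.979). Foxa2 measured 9.32, 7.14, 6.26 and 12.5 FPKM across WT 1 to 4, against 8.30, 6.37, 5.47 and 7.29 across KO 1 to 4, the WT mean being raised by WT 4. Its log2 change was -0.29 ± 0.23 (SE; interval -0.80 to 0.22, limma adjusted p = 0.792), and -0.12 without WT 4. Foxa1 ran from 2.94 to 4.90 FPKM in WT and from 2.91 to 4.35 FPKM in KO (log2 change -0.09 ± 0.19, SE; limma adjusted p = 0.947).

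The summed FPKM of the 3 FOXA genes averaged 25.2 ± 4.60 without Cre and 22.6 ± 4.35 with it. Foxa3 made up 50.1 ± 6.92% of that sum in WT and 53.6 ± 7.95% in KO (exact permutation p = 0.543, 0.543 over the 4 ratios). The difference was within the spread between libraries and ran from 0.747 percentage points without WT 4 to 7.03 without KO 1. FOXA1 and FOXA2 are also made by biliary cells, as is ONECUT1. The defining biliary markers Krt7, Krt19, Epcam and Cftr were listed at 0 in all WT libraries and at no more than 0.109 FPKM in any KO library. The 16 biliary markers in the table summed to 5.85 to 8.47 FPKM in WT and 8.89 to 17.5 FPKM in KO, and 4 of 4 tested had a positive change. Of these only Tff3, a trefoil peptide gene, passed (listed at 0 in WT, 2.03 to 3.82 FPKM in KO, limma adjusted p = 0.00295). Tff3 reached the minimum for testing only through KO. Its call and its place among the 4 positive changes are therefore not independent of that filter.

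The C/EBP genes differed more between KO libraries than between genotypes. Cebpa, a factor of differentiated, resting hepatocytes, measured 81.7, 92.03, 71.5 and 64.03 FPKM across WT 1 to 4, against 45.8, 100.1, 63.1 and 92.7 across KO 1 to 4. No KO library lay within the WT range: KO 1 and KO 3 were below it, and KO 2 and KO 4 above. The coefficient of variation was 15.8% in WT and 33.7% in KO, and over tested protein-coding genes the medians were 27.6% and 26.2%. The difference in spread was not tested. The log2 change was -0.09 ± 0.26 (SE; interval -0.67 to 0.50, limma adjusted p = 0.966).

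Cebpb, induced in the acute phase response and in liver regeneration, measured 42.6, 46.6, 61.7 and 62.2 FPKM across WT 1 to 4, against 74.4, 59.2, 74.3 and 44.4 across KO 1 to 4. KO 1 and KO 3, the libraries lowest in Cebpa, were the highest in Cebpb. The log2 change was 0.23 ± 0.22 (SE; interval -0.27 to 0.73, limma adjusted p = 0.850). The ratio of Cebpb to Cebpa was 1.62 in KO 1 and 1.18 in KO 3, above all other libraries, and 0.591 and 0.479 in KO 2 and KO 4, against 0.506 to 0.971 in WT. Its log2 difference between genotypes was 0.32 (exact permutation p = 0.486, 0.543 over the 4 ratios). It was 0.0156 without KO 1 and 0.59 without KO 4, and dropping any other single library gave 0.17 to 0.49. The change of Cebpb alone ran from 0.13 without WT 1 to 0.39 without KO 4. Macrophages also transcribe Cebpb. Their summed markers were at 122, 49.2, 215 and 183 FPKM in KO 1 to KO 4, so KO 4 combined a high marker sum with the lowest Cebpb value in KO. Their part in the Cebpb values was not tested.

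Onecut1, encoding HNF6, was the most variable of the set in WT. It measured 8.96, 18.2, 20.5 and 6.85 FPKM across WT 1 to 4, against 16.7, 8.95, 11.9 and 11.5 across KO 1 to 4. WT 2 and WT 3 were high, WT 1 and WT 4 low, and all KO libraries fell within the WT range. The coefficient of variation in WT was 49.4%, and 82.0% of tested protein-coding genes varied less. The log2 change was -0.05 ± 0.34 (SE; interval -0.81 to 0.72, limma adjusted p = 0.987), an interval that spans folds from 0.570 to 1.65.

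**Figure D4:**
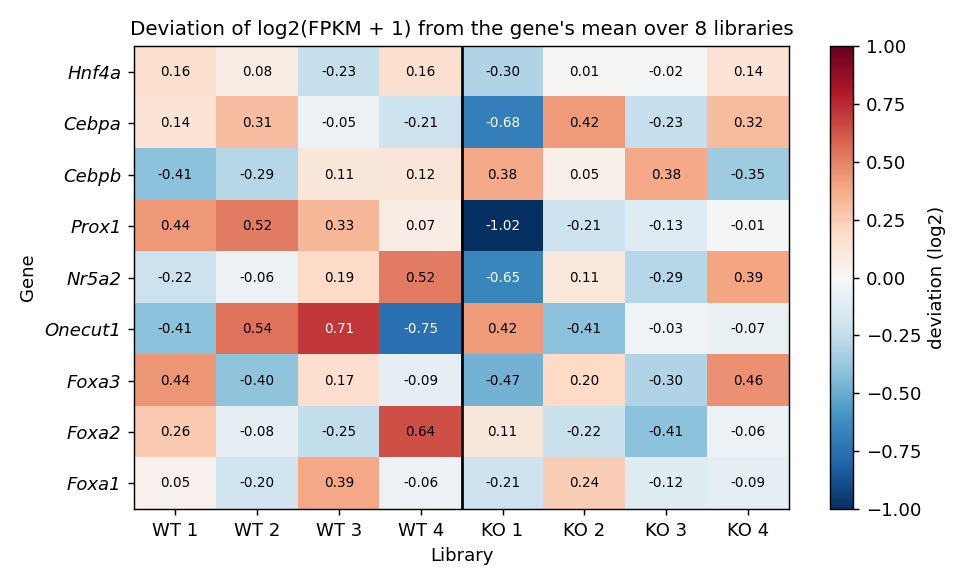
Deviation of log2(FPKM + 1) from each gene's mean over the 8 libraries (red above, blue below; the black line divides WT from KO). KO 1 is the lowest library for 6 of the 9 genes, and Prox1 there has the largest deviation, -1.02.

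Single libraries stood out across the set. KO 1 was the lowest library for Hnf4a, Foxa1, Foxa3, Cebpa, Prox1 and Nr5a2 and the highest for Cebpb. Its mean deviation over the 9 genes was -0.27, and the median deviation of all tested genes in KO 1 was -0.15, so most tested genes were low there on this scale. WT 4 was the highest for Hnf4a, Foxa2 and Nr5a2 and the lowest for Onecut1, with a median deviation of 0.15 over all tested genes. KO 4 had a median of 0.14 and was the highest for Foxa3.

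Several of the genes overlap other annotated genes, and whether the counting used strand is not given in the sources used here, so reads of opposite strands may not be separated. Shared bases are given over whole gene spans, introns included. Prox1os, antisense to the start of Prox1 over 419 bases, measured 4.15, 8.89, 5.69 and 5.48 FPKM across WT 1 to 4, against 4.06, 8.31, 5.82 and 6.90 across KO 1 to 4. The groups overlapped throughout, with a log2 change of 0.05 (limma adjusted p = 0.981), unlike the values of Prox1; the difference between these changes was not tested. Gm28172, a further antisense gene inside Prox1, averaged 1.42 ± 0.921 against 1.32 ± 0.898 FPKM (SD, n = 4 each). Hnf4aos, antisense to Hnf4a over 34913 bases, averaged 1.56 ± 0.838 FPKM without Cre and 1.29 ± 0.946 with it (limma adjusted p = 0.938), far below Hnf4a. Gm25881, a small nuclear RNA gene inside Hnf4a, averaged 9.02 ± 4.93 against 3.42 ± 2.59 FPKM (limma adjusted p = 0.498).

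For Cebpb and Onecut1 the overlapping gene followed the factor closely over the 8 libraries. Likeness was measured as the root mean square difference of log2(FPKM + 1) after centring each gene. Tmem189, whose opposite-strand model shares 908 bases with Cebpb, differed from it by 0.126, and none of the other tested genes was closer. Gm20649, a long noncoding RNA gene on the same strand that shares 29556 bases with Onecut1, differed from it by 0.211, and 4 tested genes were closer. That shared span includes introns, and the exons of Onecut1 cover 4113 bases. Cebpb itself varied by 0.295 and Onecut1 by 0.483 around their means. Gm20649 was high in WT 2 and WT 3 (10.5 and 15.7 FPKM) and low in WT 1 and WT 4 (5.09 and 4.91 FPKM), as Onecut1 was. The share of reads common to the overlapping models was not tested. Sympk, whose start lies 839 bases from that of Foxa3 without overlap, averaged 6.96 ± 3.99 FPKM without Cre and 6.21 ± 2.48 with it. Gm45091, antisense at the start of Cebpa, and A530013C23Rik, beside Cebpb, were below the minimum for testing.

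Among 8894 other tested protein-coding genes, the profiles closest to Prox1 were those of P2ry2, a purinergic receptor gene (difference 0.134), Kti12 (0.171) and Nr1h4, which encodes the bile acid receptor FXR (0.177). Prox1 varied by 0.457 around its mean. Nr1h4 measured 29.2, 38.5, 30.6 and 20.8 FPKM across WT 1 to 4, against 14.0, 23.8, 20.9 and 21.9 across KO 1 to 4. Its lowest library was KO 1, as for Prox1, but WT 4 lay below 3 KO libraries (log2 change -0.54, limma adjusted p = 0.491). The closest genes to 6 of the other factors were Suclg2 for Hnf4a, Jtb for Nr5a2, Camk2n1 for Cebpa and Pgpep1, R3hdm4 and Zzef1 for Foxa1, Foxa2 and Foxa3, at differences of 0.0571 to 0.136. With so many genes compared over 8 libraries, close profiles are a description of these libraries only.

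Among the other liver regulators Tbx3 alone passed the test. Of 25 tested further liver transcription factors 1 fell and 0 rose (median log2 change -0.06). The gene that fell was Tbx3, a T-box factor of pericentral hepatocytes, at 5.93, 6.73, 4.60 and 7.38 FPKM in WT and 1.03, 1.07, 0.688 and 1.77 FPKM in KO (log2 change -1.75, limma adjusted p = 0.00649, at most 0.0277 after dropping any 1 library and 0.0416 with the replicate number as a block). Of 19 nuclear receptors 0 passed (median -0.16), the smallest p being that of Nr4a1, an immediate early gene (14.4 ± 3.54 and 6.25 ± 2.87 FPKM, limma adjusted p = 0.175). Of 6 relatives of C/EBP and the PAR bZIP family 0 passed (median -0.13), with Hlf, a clock output factor, averaging 14.1 ± 1.38 FPKM without Cre and 7.96 ± 2.85 with it (limma adjusted p = 0.206). Of 11 other forkhead genes 0 passed (median 0.08), with Foxq1 averaging 6.08 ± 3.65 against 11.4 ± 3.95 FPKM (limma adjusted p = 0.397).

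Of 16 cofactors and partners 0 passed (median 0.02). Ppargc1b, a coactivator of nuclear receptors, had the smallest p there, averaging 1.88 ± 0.804 FPKM without Cre and 5.57 ± 3.29 with it (limma adjusted p = 0.324). Among 21 tested SWI/SNF subunits 1 rose, Smarcb1 (limma adjusted p = 0.0408, but as high as 0.126 after dropping 1 library), and 0 fell, with a median of -0.07.

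None of the listed textbook targets of the factors passed the test. Of 22 HNF4A targets 0 passed, 16 having a positive change (median 0.15). Of 13 FOXA targets and 17 C/EBP targets 0 passed (medians 0.06 and 0.14), and G6pc, the glucose-6-phosphatase gene that is on both lists, had the smallest p in each (log2 change -1.29, limma adjusted p = 0.0892).

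Of 13 NR5A2 targets 0 passed and 10 had a positive change (median 0.20). Scarb1, the HDL receptor gene, averaged 31.7 ± 10.9 FPKM without Cre and 53.8 ± 7.98 with it (limma adjusted p = 0.239). Among hepatocyte secreted products 14 of 20 were positive in change (median 0.17), and the smallest p was that of Hpx, the hemopexin gene, averaging 783 ± 121 against 1446 ± 388 FPKM (limma adjusted p = 0.165). The medians of the target lists stand beside -0.03 over all genes tested and -0.09 over the 9 factors.

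**Figure D5:**
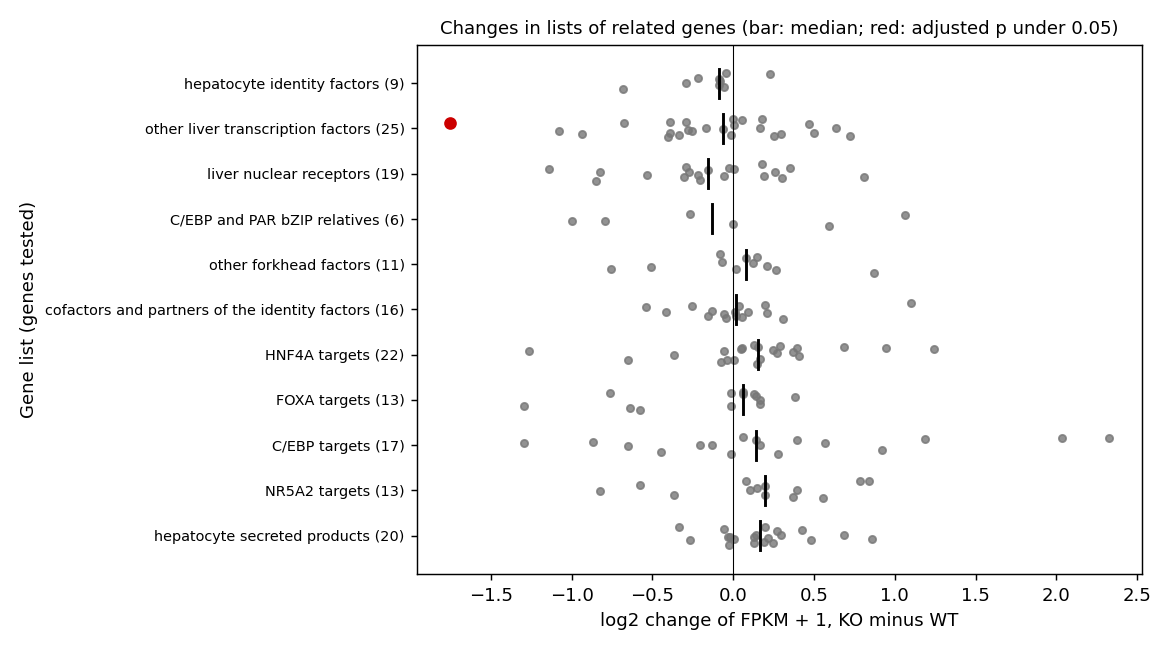
Log2 change of FPKM + 1 (KO minus WT) of each tested gene in the lists of factors, cofactors and targets, with the number tested in brackets and the median as a black bar; red marks genes with an adjusted p under 0.05. Tbx3, at -1.75, is the one red point, and the list medians lie between -0.16 and 0.20.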

How the data were processed

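Total RNA of 8 frozen mouse liver samples (4 WT, 4 KO) was sequenced from Nugen libraries, per the labels' protocols. The authors deposited 1 table of FPKM values for 35638 genes. Per the submitters' processing notes TopHat, edgeR and mm10 were used, with no role stated. Which program computed FPKM, with what annotation and with or without strand, is not given in the sources used here. Because FPKM is relative to library size, very abundant transcripts lower the values of others.

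Column names gave the samples. The scale was log2(FPKM + 1), a scale that understates changes of low genes, for the 11266 genes with a mean of at least 1 FPKM. limma 3.58.1 in R 4.3.3 compared KO with WT (trended moderation, two-sided), with Benjamini-Hochberg adjustment over all 11266 genes. Values within a library (ratios) were compared by exact permutation over 70 splits in Python 3.11.15. Depth was estimated from 12059 genes with 1 transcript of at least 400 nt; 56.4 to 60.5% of their low values lay within 0.1 of a whole read, against 20% by chance, so depths and reads per gene (from the summed exon length) are approximate. Coordinates are from GENCODE M21 on GRCm38, the build mm10, which held 99.4% of the gene IDs.

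The 9 factors, the 18 other lists and the tests were chosen with earlier results of these data known. Named genes were the 9 factors, Arid1a, up to 4 genes past the threshold per list or else the one with the smallest p, genes overlapping a factor or starting within 5 kb of it, and up to 3 genes of closest profile. Some genes that this rule names are not reported here. The endothelial, macrophage, biliary and lymphatic lists are described beside the factors they could affect; among the neutrophil and pancreas markers 0 of 1 tested gene passed in each. Tested on simulated data for this comparison of 11266 genes, the fit recovered 52 of 100 genes changed by 1 and 79 of 100 changed by 2 on the log2 scale, with 6 false calls among 137. The changed genes were drawn only from those with a WT mean log2(FPKM + 1) above 2. The simulated noise was independent between genes, without shifts common to a library, so these rates may not hold for the real libraries. Alternatives were other pseudocounts, filters, scalings and variance settings, blocking on replicate number, and dropping each library in turn.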

Additional observations from a re-analysis of the deposited data

How the results depend on the processing

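The count of called factors was 0 in each direction under all 19 alternatives. The limma adjusted p of Prox1 ran from 0.237 to 0.540, and its change from -0.79 to -0.46 on dropping 1 library and from -0.79 to -0.59 otherwise. Leaving out a library turned the sign of small changes: Hnf4a ran from -0.17 to 0.0023, Foxa1 from -0.18 to 0.0265, Foxa3 from -0.22 to 0.0892, Cebpa from -0.24 to 0.13 and Onecut1 from -0.30 to 0.18. KO 1 decided the sign for Hnf4a (0.0023 without it), Cebpa (0.13) and Foxa3 (0.0892). The sign of Foxa3 also turned without KO 3 (0.03) or WT 1 (0.08), that of Foxa1 without WT 3 (0.0265), and that of Onecut1 without KO 2 (0.08), WT 2 (0.13) or WT 3 (0.18). Foxa2, Cebpb, Nr5a2, Prox1 and the 4 ratios kept their direction under all alternatives run, though not their size: dropping 1 library took Nr5a2 from -0.39 to -0.04, Foxa2 from -0.42 to -0.12, Cebpb from 0.13 to 0.39, the log2 ratio of Cebpb to Cebpa from 0.0156 to 0.59 and the Foxa3 share difference from 0.747 to 7.03 percentage points. Foxa1 falls below a 5 FPKM minimum and has no value there.

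Scaling to equal sums of FPKM moved the median change of all genes from -0.03 to -0.12. Over all genes the numbers higher and lower were 46 and 40, but 16 and 8 with the replicate block and 14 and 13 with a minimum of 5 FPKM. They were 32 and 26 with no filter, 27 and 27 with a pseudocount of 5 FPKM, 90 and 44 without KO 2 and 20 to 36 and 14 to 34 without any other library. With the replicate block the change of Prox1 was -0.68 (limma adjusted p = 0.379), and the block changed no call among the 9 factors. The exact test within replicate numbers cannot go below p = 0.125 and gave that value for the ratio of Prox1 to Hnf4a. No pairing of the replicate numbers is stated. Deviations of same-numbered libraries correlated by 0.0964, -0.0668, 0.0151 and 0.2496 for the numbers 1 to 4. Pairs of unlike number ran from -0.183 (WT 2 with KO 4) to 0.129 (WT 2 with KO 1), so the value for number 4 was the highest. Whether same-numbered libraries shared a batch was not tested. Without KO 2, 1 nuclear receptor fell; Smarcb1 was lost without any 1 of 6 libraries.

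Depth limits Foxa1 most, at about 132 to 222 reads. The 95% intervals of the 8 factors other than Prox1 reach from 0.570-fold (Onecut1) to 1.66-fold (Cebpb).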
